A study of Mus musculus with 6 samples.

Results

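Aminoacyl-tRNA synthetases are the enzymes that join each amino acid to its transfer RNA. The 37 genes described here were taken by gene symbol alone from the 55536 genes of the table: the symbol had to be a residue letter followed by "ars", with an optional 1 or 2, or Eprs, Farsa, Farsb, Pars2 or Ears2. By that naming, 20 genes encode the cytosolic enzymes and 17, whose symbols end in 2, the mitochondrial ones. Gars and Kars are counted as cytosolic, although each gene gives rise to both a cytosolic and a mitochondrial enzyme. All 37 are protein-coding genes, and the naming rule itself uses no measured value.

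The RNA came from the livers of C57BL/6 mice aged 8 to 10 weeks. All animals carried a floxed VMP1 gene, which codes for a membrane protein of the endoplasmic reticulum with roles in autophagy and lipid transport, and Cre recombinase can excise the floxed part. The 3 control libraries (WT) came from mice injected intravenously with AAV8-TBG-null, an adeno-associated virus without Cre. The 3 libraries called labelled knockout below (H-VMP1 KO) came from mice given AAV8-TBG-cre, and in both groups livers were taken after 2 weeks. The TBG promoter is active in hepatocytes, so other liver cells are not meant to lose the gene. Vmp1 itself was at 70.7, 96.5 and 88.6 TPM in control livers, against 157, 136 and 137 TPM in those labelled knockout. The gene-level value as deposited was therefore not lower, and since reads from exons left after Cre still count, it does not check the deletion. All directions are given by the group labels. Nothing in the labels ties each library to its own animal, and the p-values therefore speak only of the spread among these 6 libraries, part of which may be technical.

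Each synthetase recognises its own amino acid and tRNA, and many of them proofread the product. Translation in the cytosol and in mitochondria uses separate sets of tRNAs, so most amino acids need a pair of nuclear genes. In the cytosol, 8 of the enzymes are held together in the multi-synthetase complex by the scaffold proteins AIMP1, AIMP2 and p18, the last encoded by Eef1e1. Many cytosolic synthetase genes are known targets of ATF4, the transcription factor translated when the kinases of the integrated stress response phosphorylate eIF2alpha. Liver, which makes most plasma proteins, is a tissue of heavy protein synthesis.

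Values are TPM, a transcript level corrected for gene length that sums to the same total in every library, so a gene's TPM also moves when abundant genes lose or gain their part. Differences are on the log2(TPM + 1) scale, labelled knockout minus control, with a standard error and with a Benjamini-Hochberg adjusted p from limma over all 12796 genes that reached 1 TPM in at least 3 libraries. The pseudocount of 1 understates the difference of low genes. The median difference of all tested genes was 0.77 as deposited. Median-of-ratios scaling, which places the middle gene at no change, lowered differences by a median of 0.83. The choice of scaling decides many directions below. Vmp1 itself differed by 0.75 as deposited and by -0.18 with median-of-ratios scaling (adjusted p = 0.2, limma). As deposited, 74.5% of tested genes were called higher and 10.7% lower at an adjusted p under 0.05. Under median-of-ratios scaling the shares were 35.1% and 36.6%. Of the synthetases, 36 of 37 were tested, and Mars2 stayed under 1 TPM in every library.

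Cytosolic synthetase transcripts took up more of the labelled knockout libraries, and the mitochondrial ones rose less. The 20 cytosolic genes summed to 511, 508 and 464 TPM in control libraries against 1290, 1077 and 1261 TPM in labelled knockout libraries. The 17 mitochondrial genes summed to 154, 162 and 151 TPM against 208, 195 and 210 TPM. Both sums were higher in every labelled knockout library, with ratios of the group means of 2.45 for the cytosolic sum and 1.31 for the mitochondrial sum. All 20 cytosolic genes were called higher as deposited, with a median difference of 1.17, and 0 lower. Of 16 mitochondrial genes tested, 10 were called higher and 0 lower, with a median difference of 0.37. The shares over all tested genes were 74.5% higher and 10.7% lower, with a median difference of 0.77. With median-of-ratios scaling 11 cytosolic genes were higher and 5 lower, and 1 mitochondrial gene was higher and 12 lower. That scaling called 35.1% of all tested genes higher and 36.6% lower. With quantile normalization the counts were 13 and 2 for the cytosolic genes and 2 and 10 for the mitochondrial genes, where 35.3% of all tested genes were higher and 35.4% lower.

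**Figure D1:**
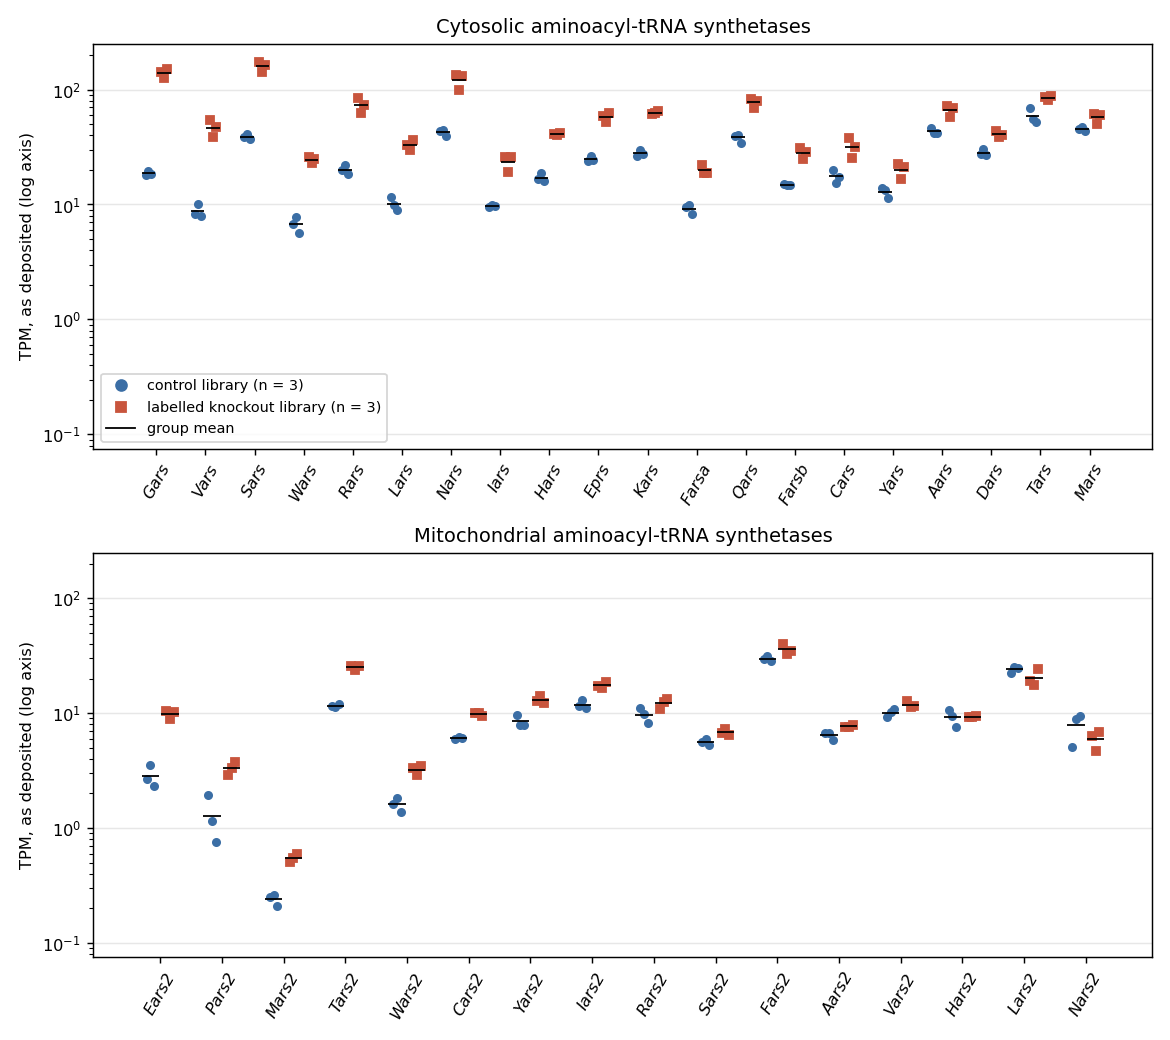
TPM of synthetase genes (log axis) in the 3 control libraries (blue circles) and the 3 labelled knockout libraries (red squares), with short lines at the group means, cytosolic genes above and mitochondrial genes below, ordered by the ratio of the means. Red squares lie above the blue circles for all 20 cytosolic genes and for all but 4 of the mitochondrial genes drawn.

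As deposited, every labelled knockout library lay above every control library for all 20 cytosolic genes and for 13 of the 17 mitochondrial genes, where 75.5% of tested genes did so in that direction and 11.3% in the other. The groups overlapped for the other 4, Hars2, Lars2, Nars2 and Rars2.

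The cytosolic gene with the largest difference was Gars (ENSMUSG00000029777, GRCm38 chromosome 6, 55038007 to 55079500, plus strand), which encodes glycyl-tRNA synthetase for both compartments. Control libraries held Gars at 18, 19.6 and 18.4 TPM, labelled knockout libraries at 142, 126 and 152 TPM. The 2 groups lay far apart, with a ratio of means of 7.51. The difference of Gars was 2.84 ± 0.10 (adjusted p = 3.3e-08, limma), larger than that of 97% of tested genes, and 1.92 with median-of-ratios scaling (adjusted p = 1.3e-06).

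Vars and Sars followed. Vars (chromosome 17, 35000987 to 35016322, plus strand), the gene of valyl-tRNA synthetase, which associates with the elongation factor eEF1B rather than with the synthetase complex, was at 8.34, 10.1 and 8.01 TPM against 54.4, 38.5 and 46.9 TPM. Its groups did not overlap, and the lowest of the 3 labelled knockout libraries, replicate 2, was still well above the highest control. The difference of Vars was 2.27 ± 0.14 (adjusted p = 5e-07) and 1.38 with median-of-ratios scaling (adjusted p = 1.8e-05). Sars (chromosome 3, 108424865 to 108445209, minus strand), the gene of seryl-tRNA synthetase, was at 38.7, 41.1 and 36.9 TPM against 172, 141 and 164 TPM. Labelled knockout replicate 2 was again the lowest of its group, and the groups did not overlap. Sars differed by 2.00 ± 0.11 (adjusted p = 2e-07) and by 1.07 with median-of-ratios scaling (adjusted p = 1.1e-05).

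Rars, Wars, Lars and Nars formed the next group by size. Rars (chromosome 11, 35808381 to 35834506, minus strand), arginyl-tRNA synthetase and a member of the complex, was at 20.1, 22 and 18.2 TPM against 83.6, 62.4 and 72.9 TPM, a difference of 1.80 ± 0.13. Wars (chromosome 12, 108860030 to 108894174, minus strand), tryptophanyl-tRNA synthetase and a gene known to be induced by interferon-gamma, was at 6.78, 7.75 and 5.6 TPM against 25.9, 22.8 and 24.9 TPM, a difference of 1.74 ± 0.12. For both genes the groups were well separated, and the adjusted p was 1e-06 for Rars and 1.1e-06 for Wars. Lars (chromosome 18, 42202298 to 42262194, minus strand), leucyl-tRNA synthetase and also known as a leucine sensor for mTORC1, was at 11.7, 9.9 and 8.99 TPM against 32.9, 29.7 and 36.3 TPM, a difference of 1.60 ± 0.12. Nars (chromosome 18, 64499647 to 64516652, minus strand), asparaginyl-tRNA synthetase, was at 43.5, 44.9 and 39.6 TPM against 133, 98.2 and 130 TPM, a difference of 1.46 ± 0.13. None of the labelled knockout libraries came down to the control level for these genes. With median-of-ratios scaling the 4 stayed higher, by 0.89 for Rars, 0.87 for Wars, 0.71 for Lars and 0.53 for Nars, with adjusted p from 6.6e-05 for Wars to 0.002 for Nars.

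Hars, Eprs, Iars and Kars also kept their higher call under median-of-ratios scaling, with smaller differences. Their differences as deposited were 1.22 for Hars (histidine), 1.18 for Eprs (the fused glutamate and proline enzyme), 1.18 for Iars (isoleucine) and 1.15 for Kars (lysine, both compartments). With median-of-ratios scaling they were 0.32 for Hars, 0.27 for Eprs, 0.30 for Iars and 0.23 for Kars. Kars was at 26.4, 29.8 and 27.4 TPM against 61.7, 62.6 and 65.1 TPM, a larger difference than in 70.2% of tested genes. Its call with median-of-ratios scaling was lost without control replicate 1 or 2 or labelled knockout replicate 2 or 3 (adjusted p from 0.056 to 0.074). The call of Iars was lost in the same way without control replicate 1 or 2 or labelled knockout replicate 1 or 3 (0.074 to 0.11), and that of Eprs without labelled knockout replicate 3 (0.056).

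The 4 genes that kept no call with median-of-ratios scaling were Farsa, Farsb, Qars and Cars. Farsa and Farsb encode the alpha and beta subunits of phenylalanyl-tRNA synthetase, which work together as a tetramer. Farsa rose from 9.22 ± 0.92 to 19.9 ± 1.97 TPM and Farsb from 14.8 ± 0.18 to 28.3 ± 3.01 TPM (SD, n = 3), with differences of 1.03 ± 0.11 and 0.89 ± 0.10. The pair of subunits thus moved by about the same factor. Qars, the glutamine enzyme, rose by 0.998 ± 0.11 and Cars, the cysteine enzyme, by 0.79 ± 0.16 as deposited. With median-of-ratios scaling the values were 0.16 for Farsa, -0.01 for Farsb, 0.07 for Qars and -0.11 for Cars.

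The smallest cytosolic differences were those of Aars, Yars, Tars, Dars and Mars, whose direction depended on the scaling. Aars (alanine) was at 46.7, 41.5 and 41.5 TPM against 72.5, 57.8 and 69.5 TPM. The difference of Aars was 0.61 ± 0.11 as deposited and became -0.32 under median-of-ratios scaling. Its exons share 1326 bases with those of Exosc6 on the same strand, a gene listed at 0 TPM in every library. Strand cannot tell reads of those bases apart. Tars (threonine), the most abundant synthetase transcript in the controls, was at 69.5, 55.6 and 52.6 TPM against 85.5, 81.4 and 87.8 TPM, a difference of 0.52 ± 0.12 and -0.41. Yars (tyrosine) differed by 0.59 and -0.29, and Dars (aspartate) by 0.51 and -0.41, in the same order. These genes were above the controls in every labelled knockout library as deposited, yet rose by less than the median gene. The 4 lower calls with median-of-ratios scaling had adjusted p of 0.018 for Aars, 0.012 for Tars, 0.031 for Yars and 0.0008 for Dars. That of Aars was lost without labelled knockout replicate 2 (0.053). That of Yars was lost without control replicate 1 (0.082) or 2 (0.051) or labelled knockout replicate 2 (0.09) or 3 (0.051). With quantile normalization Aars, Tars and Yars were at -0.06, -0.14 and -0.20 without a call.

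Mars (chromosome 10, 127296221 to 127311786, minus strand), methionyl-tRNA synthetase of the complex, moved least of the cytosolic genes. Mars was at 45.8, 47.1 and 43.8 TPM against 61.1, 50.7 and 60.2 TPM, a difference of 0.32 ± 0.10 (adjusted p = 0.015). The call was lost without control replicate 3 (0.052) or labelled knockout replicate 1 (0.067) or 3 (0.066). With median-of-ratios scaling Mars was lower, at -0.61 (adjusted p = 2e-04). Its exons share 68 bases with those of Ddit3 on the opposite strand, the gene of the stress transcription factor CHOP. That Ddit3 gene was at 5.08, 9.04 and 6.22 TPM against 132, 106 and 109 TPM. Reads of the shared bases cannot be told apart without strand, which is not given in the sources used here. Mars nevertheless stood at the low end of the family.

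**Figure D2:**
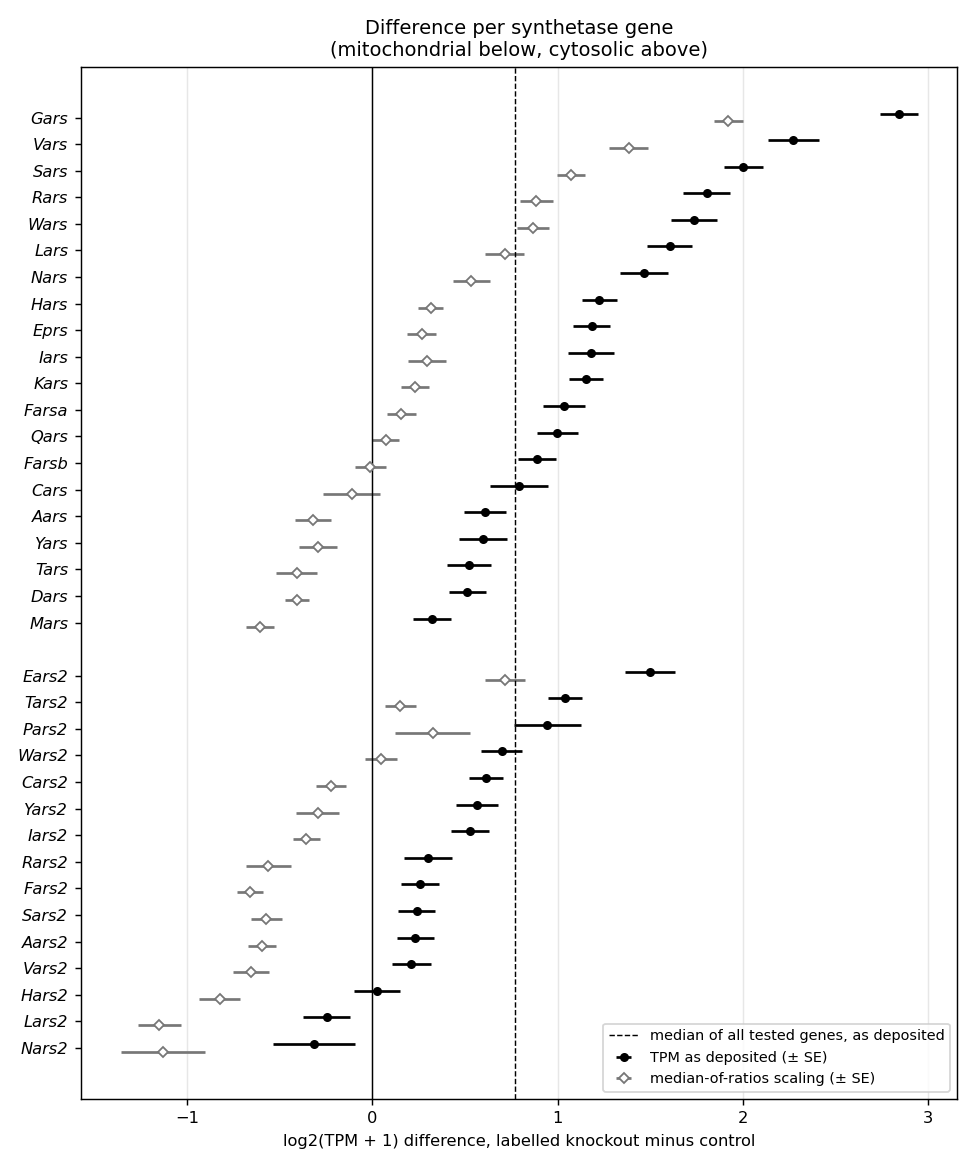
Difference of log2(TPM + 1), labelled knockout minus control, for tested synthetase genes as deposited (filled circles) and after median-of-ratios scaling (open diamonds), with bars of ± SE from limma. The dashed line marks the median of all tested genes, 0.77: Gars stands farthest to the right at 2.84, and most mitochondrial genes lie left of the line.

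Inside and outside the multi-synthetase complex the median differences were close. The 8 complex members (Dars, Eprs, Iars, Kars, Lars, Mars, Qars and Rars) were all called higher as deposited, with a median difference of 1.17, and the 12 cytosolic genes outside it likewise, with a median of 1.13. With median-of-ratios scaling 5 of 8 were higher and 2 lower inside the complex, and 6 of 12 higher and 3 lower outside it. Over all tested genes 74.5% were higher as deposited, and 35.1% were higher and 36.6% lower with that scaling. Inside the complex the count of higher genes under that scaling fell to 3 without control replicate 1 or 2 and to 2 without labelled knockout replicate 3, and outside it the count of lower genes fell to 1 without labelled knockout replicate 2. The difference between these groups was not tested. Complex members spanned from Mars at 0.32 to Rars at 1.80, so transcripts of enzymes that sit in the same particle moved by unequal amounts.

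The 3 scaffold genes of the complex were higher with every scaling compared. Aimp1 was at 19.3, 23.9 and 20.1 TPM against 50.5, 48.7 and 55.5 TPM, a difference of 1.25 ± 0.11. Aimp2 was at 7.21, 7.86 and 5.74 TPM against 22.9, 23.3 and 23.5 TPM, a difference of 1.62 ± 0.12. Eef1e1 was at 4.43, 4.58 and 4.09 TPM against 10.8, 10.1 and 12.3 TPM, a difference of 1.17 ± 0.11. The groups did not overlap for any of these genes, as for 75.5% of tested genes in that direction. The share of all tested genes called higher was 74.5% as deposited, 35.1% with median-of-ratios scaling and 35.3% with quantile normalization. With median-of-ratios scaling the values were 0.34 for Aimp1, 0.75 for Aimp2 and 0.34 for Eef1e1 (adjusted p = 0.0079, 1.8e-04 and 0.0069), and with quantile normalization 0.54, 0.83 and 0.36.

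Because ATF4 binds together with C/EBP proteins at a composite element whose usual core is TGATGCAA, the promoters of the family were searched for these letters. The windows are RefSeq promoter sequences on GRCm38.p6, from 250 bases before to 50 bases after each annotated start, and 27 of the 37 genes had an entry (28 windows, since Aars2 had 2). The 10 genes without an entry included Cars, Hars, Hars2, Lars, Nars, Pars2, Rars, Vars and Wars. TGATGCAA was found on either strand in 4 of the 28 windows, or 14.3%, and in 0.895% of the 32851 windows of the table. The looser TGATGNAA, which includes the first motif, was found in 5 of the 28, or 17.9%, and in 3.97% of all windows. Matches of 4 genes are shown as examples of the element, for Iars, Tars and Yars with TGATGCAA and for Gars with the looser motif only. Capitals mark the match, 5′ to 3′ on the gene's strand, where TTGCATCA and TTTCATCA are matches read from the opposite strand.
Gars, chr6:55037881-55038000, plus strand, bases -120 to -1 before the start: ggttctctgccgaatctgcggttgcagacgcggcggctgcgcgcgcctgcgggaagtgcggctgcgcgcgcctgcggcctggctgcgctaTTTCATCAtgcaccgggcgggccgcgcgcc
Tars, chr15:11399659-11399778, minus strand, bases -120 to -1 before the start: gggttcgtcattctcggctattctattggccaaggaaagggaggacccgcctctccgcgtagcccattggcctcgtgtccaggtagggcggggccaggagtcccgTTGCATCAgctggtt
Iars, chr13:49682127-49682154, plus strand: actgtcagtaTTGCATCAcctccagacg
Yars, chr4:129189896-129189923, plus strand: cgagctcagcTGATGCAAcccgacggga

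Counted from the RefSeq start, the first base of the match lay at -30 in Gars, -15 in Tars, 8 in Iars and 4 in Yars. In Yars the match includes the annotated start codon. The 4 genes shown did not move alike: Gars differed by 2.84, Iars by 1.18, Yars by 0.59 and Tars by 0.52 as deposited, the last 2 below the median gene at 0.77. Sars, at 2.00, had a window without a match. A match in a window is a description of letters and not a measured binding site.

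The mitochondrial genes spread from a clear increase to values below the controls. Ears2 (ENSMUSG00000030871, chromosome 7, 122037213 to 122067263, minus strand), the mitochondrial glutamyl-tRNA synthetase, which charges the tRNAs of both glutamate and glutamine, was the only mitochondrial member called higher under median-of-ratios scaling as well. Ears2 was at 2.68, 3.57 and 2.33 TPM against 10.5, 8.84 and 10.2 TPM. The labelled knockout libraries were all well above the controls, with a ratio of means of 3.44. The difference of Ears2 was 1.498 ± 0.13 (adjusted p = 4.8e-06) and 0.72 with median-of-ratios scaling (adjusted p = 5.8e-04). Its exons share 89 bases with Ubfd1 on the opposite strand, which was at 6.51, 8.42 and 8.17 TPM against 22, 19.6 and 21.2 TPM.

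Tars2, Pars2 and Wars2 came next. Tars2 (threonine) was at 11.5, 11.3 and 12 TPM against 25.7, 23.6 and 25.5 TPM, a difference of 1.04 ± 0.09. Pars2 (proline) was at 1.93, 1.16 and 0.76 TPM against 2.89, 3.31 and 3.73 TPM, a difference of 0.94 ± 0.18, and Wars2 (tryptophan) at 1.62, 1.81 and 1.38 TPM against 3.31, 2.9 and 3.44 TPM, a difference of 0.70 ± 0.11. The groups did not overlap for these 3 genes, the last 2 of which were near the filter. With median-of-ratios scaling none of them was called (0.15, 0.33 and 0.04), although the call of Pars2 appeared without control replicate 1 (0.56, adjusted p = 0.0093), and with quantile normalization Tars2 was higher (0.25, adjusted p = 0.025) and Wars2 had turned to -0.17. Mars2 (methionine) was at 0.25, 0.26 and 0.21 TPM against 0.51, 0.55 and 0.59 TPM, and with no filter on low values its difference was 0.32 (adjusted p = 0.0069).

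Cars2, Yars2 and Iars2 changed the direction of their call with the scaling, from higher as deposited to lower relative to the middle gene. Their differences as deposited were 0.52 for Iars2, 0.57 for Yars2 and 0.61 for Cars2. With median-of-ratios scaling they were -0.36 for Iars2, -0.30 for Yars2 and -0.22 for Cars2. That lower call was lost for Yars2 without control replicate 1 or 3 or labelled knockout replicate 1 or 3 (adjusted p from 0.086 to 0.15), and for Cars2 without control replicate 3 or labelled knockout replicate 1 or 3 (0.092 to 0.12). Iars2 kept it. In these genes for cysteine, tyrosine and isoleucine the transcript gained TPM while falling behind the median gene. Cars2 shares 422 exon bases with Naxd on the opposite strand, which was at 43, 50.3 and 40 TPM against 58.1, 58.5 and 58.3 TPM. Iars2 shares 2034 exon bases with Rab3gap2 on the opposite strand, which was at 5.32, 5.8 and 5.03 TPM against 13.7, 12.6 and 13.7 TPM.

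Fars2 and Sars2 were just past the threshold as deposited and Rars2, Aars2 and Vars2 just short of it. Fars2 (phenylalanine), the most abundant mitochondrial synthetase transcript, was at 29.4, 31.4 and 28.4 TPM against 39.8, 32.8 and 34.8 TPM, a difference of 0.26 ± 0.10 (adjusted p = 0.04). Sars2 (serine) was at 5.57, 5.92 and 5.31 TPM against 6.7, 7.24 and 6.42 TPM, a difference of 0.24 ± 0.10 (adjusted p = 0.044). In both genes the lowest labelled knockout library was only slightly above the highest control. Fars2 shares 501 exon bases with Nrn1 and 115 with Lyrm4, both on the opposite strand. Nrn1 was more abundant than Fars2, at 124, 172 and 147 TPM against 206, 180 and 199 TPM. The call of Sars2 was lost without any library other than control replicate 2 (adjusted p from 0.073 to 0.12), and that of Fars2 without control replicate 1 or 3 or labelled knockout replicate 1 or 3 (0.079 to 0.18). Rars2 differed by 0.30, Aars2 by 0.23 and Vars2 by 0.21, with adjusted p of 0.05, 0.052 and 0.082. The call of Rars2 appeared without control replicate 1 (0.021) or labelled knockout replicate 1 (0.031), and that of Aars2 without control replicate 2 (0.048). With median-of-ratios scaling these 5 genes were called lower, from -0.56 for Rars2 to -0.66 for Fars2.

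Hars2, Lars2 and Nars2 did not gain TPM, and their groups overlapped. Hars2 was at 10.7, 9.37 and 7.53 TPM against 9.22, 9.27 and 9.36 TPM, a difference of 0.02 ± 0.12 (adjusted p = 0.86), and its exons share 195 bases with those of Hars on the opposite strand. Lars2 (chromosome 9, 123366927 to 123462666, plus strand), the mitochondrial leucine enzyme, was at 22.2, 25.4 and 24.6 TPM against 19, 17.6 and 24.2 TPM, a difference of -0.25 ± 0.13 (adjusted p = 0.093). Labelled knockout replicate 3 lay within the control range, and without it Lars2 was called lower (-0.38, adjusted p = 0.02). Nars2 (chromosome 7, 96951505 to 97064758, plus strand), for asparagine, was at 5.11, 8.87 and 9.51 TPM against 6.35, 4.72 and 6.84 TPM, a difference of -0.31 ± 0.22 (adjusted p = 0.21). Control replicate 1 was the low control, and without it Nars2 was called lower (-0.56, adjusted p = 0.0063). With median-of-ratios scaling the 3 genes were the lowest of the family, at -0.83 for Hars2, -1.15 for Lars2 and -1.13 for Nars2 (adjusted p = 3e-04, 7.6e-05 and 0.0033).

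Ratios of a cytosolic to a mitochondrial gene within a library do not change when a library is multiplied by a factor, as median-of-ratios scaling does, though quantile normalization can change them. There are 18 such pairs for the same amino acid, in which Eprs and Fars2 each stand in 2. In 11 pairs (61.1%) the ratio was higher in every labelled knockout library than in every control, in 3 (16.7%) it was lower, and in 4 the groups overlapped. The ratio thus separated the groups in 77.8% of these pairs, and it did so in 77.7% of all pairs of tested genes with values above 0, so the count says nothing particular to the synthetases. With 3 libraries against 3 the smallest two-sided exact permutation p for a single ratio is 0.1, so that test cannot reach 0.05, and the ratios are given as values without a test. The median change of the log2 ratio over the pairs was 0.68.

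The valine, leucine, asparagine and serine pairs shifted most. Vars over Vars2 was 0.909, 0.988 and 0.736 in control libraries and 4.29, 3.43 and 4.06 after the labelled knockout. Lars over Lars2 was 0.526, 0.389 and 0.366 against 1.73, 1.69 and 1.5. For both amino acids the cytosolic transcript was thus the less abundant of the pair in every control and the more abundant in every labelled knockout library. Nars over Nars2 was 8.51, 5.06 and 4.17 against 20.9, 20.8 and 19, and Sars over Sars2 was 6.94, 6.94 and 6.94 against 25.7, 19.5 and 25.5. Iars over Iars2 crossed 1 as well, from 0.827, 0.768 and 0.88 to 1.5, 1.16 and 1.38. The arginine, histidine, tryptophan, alanine and both phenylalanine pairs rose too, with changes of the log2 ratio from 0.35 for Aars over Aars2 to 1.52 for Rars over Rars2.

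In the threonine, glutamate and methionine pairs the mitochondrial gene gained on the cytosolic one. Tars over Tars2 fell from 6.03, 4.93 and 4.37 to 3.33, 3.45 and 3.44, and Eprs over Ears2 from 8.9, 7.34 and 10.4 to 5.55, 5.92 and 6.16. Mars over Mars2 was at 183, 181 and 208 against 120, 92.1 and 102, a ratio that rests on a Mars2 level under 1 TPM, and with a pseudocount of 1 its change vanished (0.00). Cars over Cars2, Yars over Yars2 and Eprs over Pars2 overlapped between groups. Their log2 changes were 0.14, 0.01 and -0.25, and that of Eprs over Pars2 turned to 0.07 without control replicate 3.

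**Figure D3:**
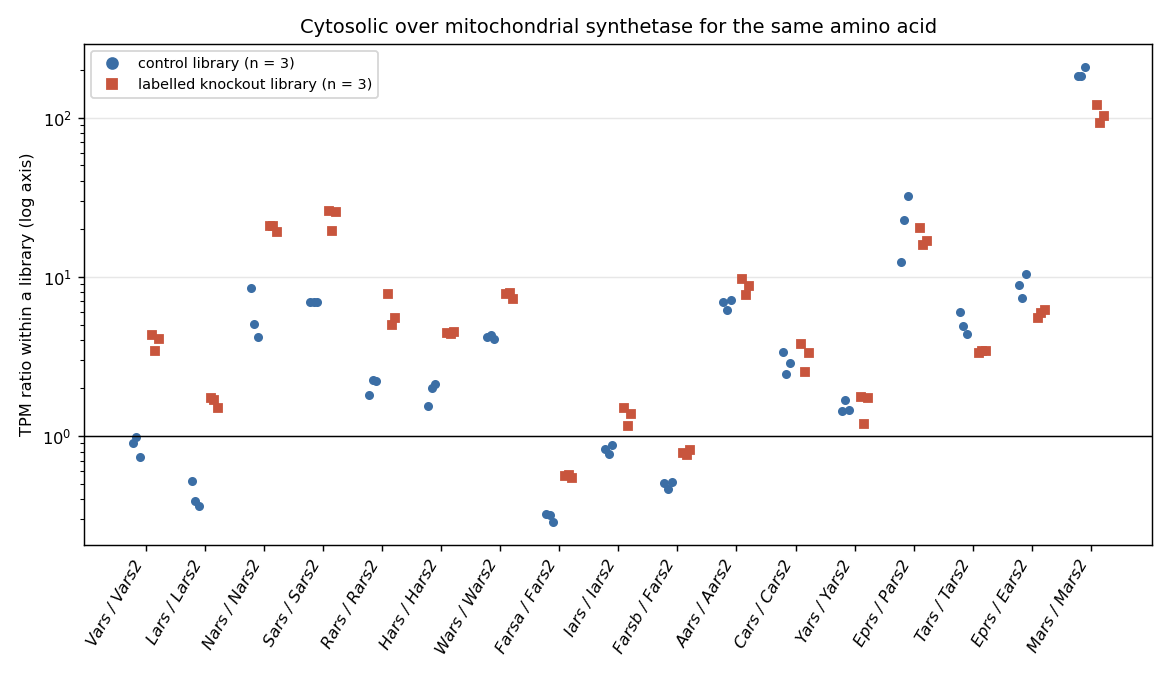
TPM ratio of the cytosolic to the mitochondrial synthetase gene for the same amino acid within each library (log axis), controls as blue circles and labelled knockout as red squares, ordered by the change. The pairs Vars/Vars2, Lars/Lars2 and Iars/Iars2 cross the line at a ratio of 1, and the 3 rightmost nonoverlapping pairs lie lower in the labelled knockout.

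The make-up of the synthetase pool changed as well. The cytosolic genes held 76.1 ± 0.73% of the summed synthetase TPM of controls, against 85.5 ± 0.77% after the labelled knockout (SD, n = 3), with no overlap. Gars went from 2.88 ± 0.15% to 9.93 ± 0.44% and Sars from 5.98 ± 0.16% to 11.2 ± 0.22%, which made Sars the first and Gars the second most abundant synthetase transcript. Tars and Mars, the first and second in the controls, went from 9.10 ± 1.18% to 6.03 ± 0.35% and from 7.01 ± 0.12% to 4.05 ± 0.06%. Lars2 fell from 3.71 ± 0.34% to 1.43 ± 0.19%. The pool therefore changed its leading members, and shares of 1 pool cannot all move in the same direction.

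**Figure D4:**
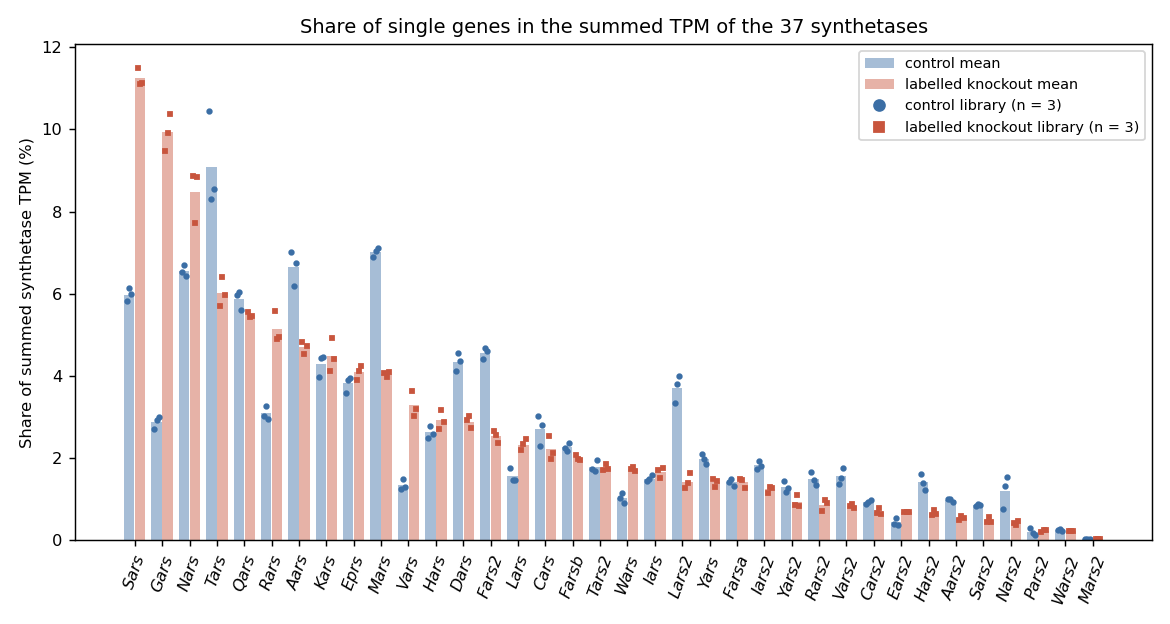
Share of single genes in the summed TPM of the 37 synthetases, in percent, as group means (bars) with single libraries (points), ordered by the mean in the labelled knockout. Sars and Gars lead in the labelled knockout at 11.2% and 9.93%, where Tars and Mars led in the controls at 9.10% and 7.01%.

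Genes of tRNA editing and proofreading, of elongation, and of tRNA export and modification were mostly higher as deposited, as were 74.5% of all tested genes. With median-of-ratios scaling that share was 35.1%, and 36.6% of tested genes were lower. Of the 7 editing, proofreading and synthetase-like genes that reached 1 TPM in a control, 6 were called higher and 0 lower, with a median of 0.65, and with median-of-ratios scaling 1 was higher and 3 lower. Dtd1, a D-aminoacyl-tRNA deacylase, was higher by 1.16, and by 0.29 with median-of-ratios scaling. Ptrh2, Dtd2, Ptrhd1, Aarsd1 and Prorsd1 were higher by 0.90, 0.77, 0.65, 0.63 and 0.36 as deposited, and of these Aarsd1 (-0.27) and Prorsd1 (-0.53) were called lower with median-of-ratios scaling. Tarsl2, a second cytosolic threonyl-tRNA synthetase outside the naming rule, was at 3.08, 4.76 and 2.92 TPM against 2.95, 2.67 and 2.78 TPM, a difference of -0.25 (adjusted p = 0.14) and of -0.96 with median-of-ratios scaling (adjusted p = 3.6e-04). All 6 elongation factor genes were higher as deposited, among them Eef1b2 by 1.90 and Eef1g by 1.84, both subunits of the eEF1B complex, Eif5a by 1.24 and Eef1a1 by 1.18. With median-of-ratios scaling Eef1b2 (0.96), Eef1g (0.90) and Eif5a (0.30) stayed higher, while Eef1a1 was at 0.23 without a call. The 4 genes of tRNA export and modification were Trmt1 (1.01), Ssb (0.93), Nsun2 (0.80) and Xpot (0.53), all called higher as deposited. After median-of-ratios scaling Xpot was lower (-0.38) and the other 3 were not called.

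Partner genes of mitochondrial translation were mixed, and more of them were lower than higher with median-of-ratios scaling. Among all tested genes 74.5% were called higher and 10.7% lower as deposited, and 35.1% and 36.6% with that scaling. In place of a mitochondrial glutaminyl-tRNA synthetase, mitochondria convert glutamate on its tRNA with the amidotransferase encoded by Gatb, Gatc and Qrsl1. Qrsl1 was higher by 0.79, Gatc by 0.48 and the formyltransferase gene Mtfmt by 0.70, and Gatb was at -0.01. With median-of-ratios scaling Gatb (-0.89) and Gatc (-0.40) were called lower, and Qrsl1 (0.06) and Mtfmt (-0.11) were not called. Of 10 mitochondrial translation factors, 4 were higher and 1 lower as deposited, with a median of 0.24, and 0 higher and 8 lower with median-of-ratios scaling. Tsfm was higher by 0.996, Mrrf by 0.80 and Tufm, the mitochondrial elongation factor Tu, by 0.57 as deposited, while the initiation factor gene Mtif2 was lower (-0.35, and -1.22 under median-of-ratios scaling). Tufm turned to -0.36 with median-of-ratios scaling. Of 9 tested mitochondrial tRNA processing genes, 7 were higher and 1 lower as deposited, led by Pus1 (1.10), Trmt5 (1.04), Gtpbp3 (1.0) and Elac2 (0.80), and 4 were lower with median-of-ratios scaling. Under that scaling Pus1 was at 0.22 (adjusted p = 0.048), and no gene of the list (0) was called higher with a replicate block or without any library other than control replicate 1, where 2 were. The lower call as deposited was lost without labelled knockout replicate 1 or 3, as was that of Mtif2 without labelled knockout replicate 3. Of 6 selenocysteine genes, 4 were higher (Eefsec by 0.997, Pstk by 0.53, Secisbp2 and Sephs1 by 0.51) and Sephs2, a selenophosphate synthetase gene, was lower (-0.84). With median-of-ratios scaling 0 of that list were higher and 5 lower.

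Most integrated stress response genes, like most tested genes, were higher as deposited, and a majority still were after median-of-ratios scaling. Of 15 tested rows of regulators, 12 were called higher and 0 lower as deposited, with a median of 1.36. With median-of-ratios scaling 9 were higher and 4 lower. Over all tested genes 74.5% were called higher as deposited, and 35.1% were higher and 36.6% lower with that scaling. Nupr1 was at 1.44, 1.2 and 1 TPM against 101, 172 and 118 TPM, a difference of 5.86. The 2 identifiers named Ddit3 each count as a row called higher, with differences of 3.93 and 4.35. Trib3, the pseudokinase that feeds back on ATF4, rose by 2.76. Atf4 itself, named after its values were seen, was at 59, 47.8 and 37.5 TPM against 129, 118 and 124 TPM, a difference of 1.36 ± 0.15, and 0.43 with median-of-ratios scaling (adjusted p = 0.023). Atf4 protein, which is controlled in translation, was not measured.

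Amino acid synthesis genes linked to ATF4 moved both ways. Shares over all tested genes were 74.5% higher and 10.7% lower as deposited, and 35.1% and 36.6% with median-of-ratios scaling. Of 16 tested, 5 (Psat1, Aldh18a1, Pycr1, Pck2 and Phgdh) were under 1 TPM in every control, so they passed the filter only through the labelled knockout and could only come out higher. Of the other 11, 5 were higher and 3 lower as deposited, with a median of 0.43, and 3 higher and 6 lower with median-of-ratios scaling, with a median of -0.51. Leaving out any labelled knockout library drops the low genes from the fit, and 3 to 4 of 11 were then higher as deposited. Psat1 and Psph, of serine synthesis, went from 0.40 ± 0.13 to 35.8 ± 2.81 TPM and from 2.36 ± 0.41 to 21 ± 3.40 TPM (SD, n = 3). Pck2 rose by 2.94 and Aldh18a1, of proline synthesis, by 2.61. Shmt2, the mitochondrial hydroxymethyltransferase that makes glycine from serine, was lower (-0.63, and -1.56 under median-of-ratios scaling) and was named after its values were seen. Of 13 amino acid transporter genes tested, 4 (Slc1a4, Slc38a1, Slc7a1 and Slc7a11) were likewise under 1 TPM in every control. Of the other 9, 4 were higher and 3 lower as deposited, with a median of 0.01, and 4 higher and 5 lower with median-of-ratios scaling, with a median of -0.71. Slc1a4, a transporter of alanine, serine and other small neutral amino acids, rose by 4.29, Slc3a2, the shared heavy chain of several transporters, by 3.35, and the glycine transporter gene Slc6a9 by 2.21. Slc7a11, the cystine transporter gene, was listed at 0 in all 3 controls, against 13.4, 10.8 and 9.29 TPM in labelled knockout libraries.

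**Figure D5:**
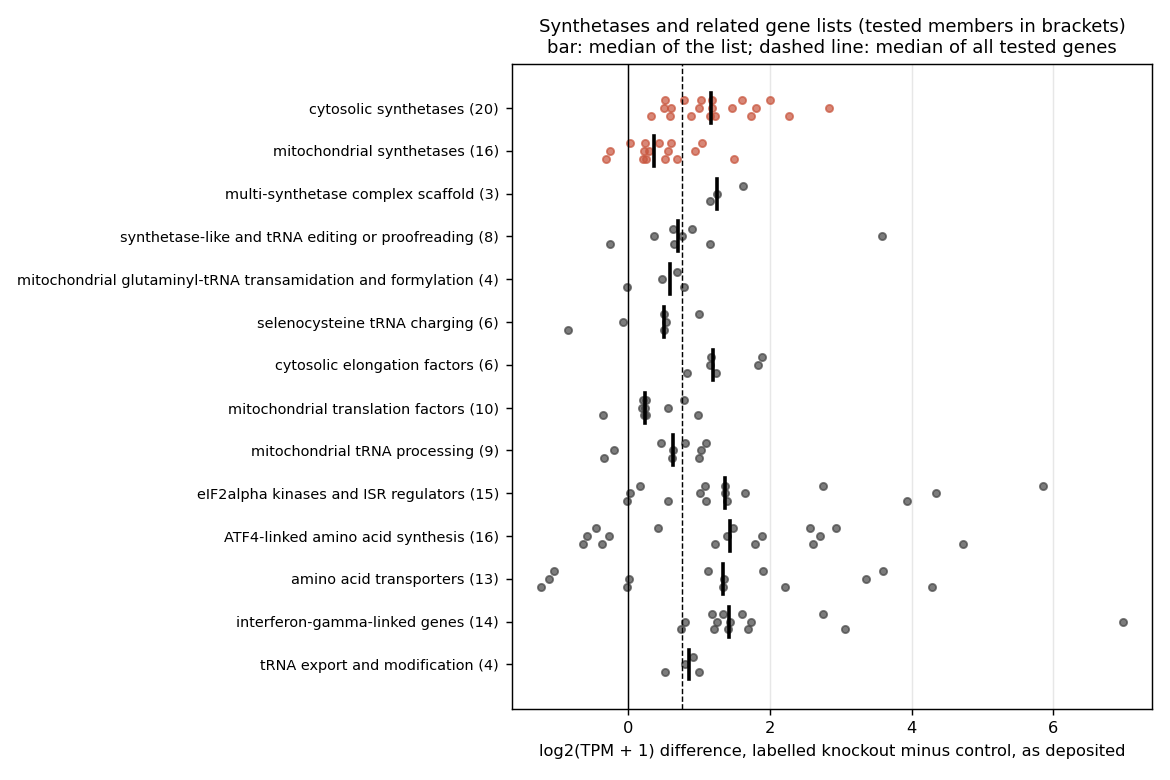
Difference of log2(TPM + 1), labelled knockout minus control as deposited, for the tested genes of the synthetase classes (red) and of the 12 related lists (grey), with list medians as bars and the median of all tested genes, 0.77, as a dashed line. Cytosolic synthetases have their median at 1.17 and mitochondrial synthetases at 0.37, near the mitochondrial translation factors at 0.24.

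Beside Wars stand the interferon-gamma-linked genes, of which 12 reached 1 TPM in a control. All 12 were called higher as deposited, and 10 under median-of-ratios scaling, where 74.5% and 35.1% of all tested genes were. Cxcl10 rose by 6.99, Gbp2 by 3.06, Gbp3 by 2.75 and Gbp7 by 1.74. Wars, at 1.74, lay within the range of that list. Whether the rise of Wars is part of an interferon response was not tested.

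Markers of other cell types moved with the same comparison. Many markers of other cell types were under 1 TPM in every control, so they could be tested only because they were high in the labelled knockout: all tested markers of dendritic cells (3), cholangiocytes (3) and T and NK cells (1), 3 of 4 of neutrophils, 2 of 3 of B and plasma cells and 3 of 5 of proliferating cells. Among markers that reached 1 TPM in a control, 7 of 7 of macrophages and Kupffer cells, 7 of 7 of stellate cells and fibroblasts and 6 of 6 of endothelial cells were called higher as deposited. With median-of-ratios scaling 7, 7 and 4 were. Among all tested genes 74.5% were called higher and 10.7% lower as deposited, and 35.1% and 36.6% with that scaling. Of 9 hepatocyte markers, 8 were lower and 0 higher as deposited, and 9 were lower under median-of-ratios scaling. The summed TPM of the macrophage list ran from 88.9 to 150.5 in control libraries and from 906 to 1174 in labelled knockout libraries, and that of the stellate list from 46.4 to 50.4 and from 267 to 316. For the lists that were low in controls the sums ran from 0.18 to 0.52 and from 6.21 to 9.92 for dendritic cells, from 1.85 to 2.29 and from 7.39 to 11.3 for cholangiocytes, from 1.21 to 1.48 and from 6.2 to 10.4 for T and NK cells, from 2.03 to 3.66 and from 28.5 to 59.6 for neutrophils, from 2.14 to 2.75 and from 26.3 to 29 for B and plasma cells, and from 2.78 to 3.29 and from 19.2 to 36.9 for proliferating cells. The hepatocyte list summed to between 55380 and 74690 TPM and to between 23830 and 26960 TPM, so its genes stayed by far the most abundant of these lists and the tissue label fits its markers. No marker (0) was at 0 in every library. In bulk tissue, fewer cells of a type and less RNA per cell cannot be told apart, all these cell types express synthetases, and the part of cell composition in the synthetase differences was not tested.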

How the data were processed

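RNA from 6 mouse liver samples was sequenced, 3 libraries per group, from total RNA extracted with Trizol and made into Illumina libraries, per the labels' protocols. The authors deposited 1 table of TPM values, which sum to the same total in each library. STAR 2.6.1c, RSEM, edgeR and the mm10 build are listed, without roles, per the submitters' processing notes. How reads shared by near-identical or overlapping genes were assigned is not given in the sources used here. TPM keeps no read number: depth and detection limits are unknown, no count model was used, and 0 columns were left unmapped.

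The 12796 genes that reached 1 TPM in 3 or more libraries were fitted as log2(TPM + 1) with limma 3.58.1 in R 4.3.3, with trended and robust empirical Bayes moderation and Benjamini-Hochberg adjustment at 0.05. The fit was run on simulated data with known changes, up and down in equal number. Those data held no shift between the groups, so the run says nothing on the choice of scaling. Alternatives changed the pseudocount, filter, scaling, variance model, threshold and replicate block, and left out each library. Positions are from GENCODE M21 on GRCm38 (mm10), and promoters from RefSeq on GRCm38.p6. Members, related lists and cell type lists were chosen with earlier results of these data known. Named are the members, the scaffold, editing and transamidation genes, up to 4 called genes with the largest differences from each other list, and Vmp1. Some items that this rule names, 1 member among them, are not reported here or drawn by name, but count in the totals. Plots used matplotlib 3.10.9 (Python 3.11.15).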

Additional observations from a re-analysis of the deposited data

How the results depend on the processing

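Scaling between libraries was the choice that changed most. With median-of-ratios scaling the higher and lower counts became 4496 and 4689 over all tested genes, 11 and 5 for cytosolic synthetases, 1 and 12 for mitochondrial synthetases and 46 and 38 for the related lists together, against 82 and 9 of 108 as deposited, where some genes passed the filter only through the labelled knockout. With quantile normalization they were 4520 and 4534, 13 and 2, 2 and 10, and 51 and 32. Median-of-ratios scaling turned Aars (-0.32), Aars2 (-0.59), Cars (-0.11), Cars2 (-0.22), Dars (-0.41), Fars2 (-0.66), Farsb (-0.01), Hars2 (-0.83), Iars2 (-0.36), Mars (-0.61), Rars2 (-0.56), Sars2 (-0.57), Tars (-0.41), Vars2 (-0.65), Yars (-0.29) and Yars2 (-0.30) below 0. Quantile normalization did so for Aars (-0.06), Aars2 (-0.58), Cars2 (-0.18), Dars (-0.19), Fars2 (-0.45), Hars2 (-0.77), Iars2 (-0.27), Mars (-0.34), Rars2 (-0.49), Sars2 (-0.57), Tars (-0.14), Vars2 (-0.58), Wars2 (-0.17), Yars (-0.20) and Yars2 (-0.22). Rescaling without the mitochondrially encoded and 20 most abundant genes turned Hars2 (-0.16) and called 1 mitochondrial synthetase lower. Rescaling without the Mup genes turned Hars2 (-0.21) and Vars2 (-0.03), with 1 mitochondrial synthetase and 16 related genes lower.

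The replicate numbers were shared by the groups, but libraries with the same number did not deviate together (correlations of 0.076, 0.04 and -0.115), so no pairing was assumed. With a replicate block the counts were 9427 and 1333, and Fars2 (adjusted p = 0.08) and Sars2 (0.083) lost their calls. With the block and median-of-ratios scaling the counts were 4372 and 4570 over all genes, 11 and 5 for cytosolic and 1 and 10 for mitochondrial synthetases, and 45 and 37 for the related lists, with the synthetases listed for median-of-ratios scaling again below 0. Leaving out each library in turn gave 7585 to 9599 genes higher and 1135 to 1341 lower, 19 to 20 and 0 to 0 for cytosolic, 8 to 11 and 0 to 1 for mitochondrial synthetases, and 67 to 83 and 6 to 10 for the related lists. The same under median-of-ratios scaling, chosen after seeing the data, gave 2722 to 4334 and 4201 to 4489, 8 to 11 and 3 to 5, 1 to 2 and 10 to 12, and 29 to 47 and 34 to 37. Without labelled knockout replicate 1, 2 or 3 the count of higher genes under that scaling was 2797, 3049 or 2722. The filter was applied again each time, which left 11152, 11141 or 11151 genes tested with either scaling, against 12796 with all libraries. Leaving out libraries moved Hars2 between -0.10 and 0.13, Yars over Yars2 between -0.09 and 0.20, and Eprs over Pars2 between -0.62 and 0.07. A pseudocount of 1 turned Eprs over Pars2 to 0.24. With no filter 12636 of 28532 genes were higher, and Fars2 and Sars2 lost their calls. At an adjusted p under 0.01 Fars2, Mars and Sars2 did. The cause of these changes was not tested. TPM carries no depth, so counting error is unknown.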
